A study of Caenorhabditis elegans with 10 samples.

Results

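Small heat shock proteins of *C. elegans* were examined at the mRNA level in hibernating animals, over a cooling course of 5 conditions. The 10 members were chosen by gene name: *hsp-16.1*, *hsp-16.11*, *hsp-16.2*, *hsp-16.41*, *hsp-16.48*, *hsp-16.49*, *hsp-12.3*, *hsp-12.6*, *hsp-17*, and *sip-1*. They are 10 of the 19985 genes with values, and were chosen with earlier results of these data known. All 10 were found, and 9 of them reached an FPKM (reads relative to transcript length and sequencing depth, as fragments per kilobase) of 1 or more in some condition. The exception was *hsp-16.41*. *hsp-12.6*, *hsp-12.3*, and *hsp-16.2* reached it only at 4°C, which favours counts of members higher in the cold. Since *hsp-16.48* and *hsp-16.49* have equal values in every condition, the 10 genes give 9 distinct profiles, 8 of them past this filter. *hsp-16.1* and *hsp-16.11*, whose reads are nearly equal, count separately among the 8.

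All animals were wild type (N2), without transgene or mutation, raised on OP50 bacteria at 20°C from the L1 stage to the first day of adulthood. They were collected at 20°C, after a further step at 10°C, or after that step and a stay at 4°C of 1 day, 3 days, or 5 days, with 2 samples for each of the 5 conditions. The step at 10°C lasted 2 hr in the study's design and 3 hr in the treatment labels, and the treatment labels of the last condition give 3 days at 4°C where the titles give 5 days. Total RNA came from whole animals, so fewer cells of a type and less mRNA per cell cannot be told apart.

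The deposited values hold 1 column per condition, taken here to pool both samples. There is therefore no replicate error, and no difference below was tested against the spread between animals or cultures. The limits given in parentheses are 95% Wilson limits from the recovered reads and cover counting error only. The columns hold between 70741449 reads (4°C day 5) and 85103831 reads (4°C day 1). A change is the log2 ratio of FPKM + 0.1, which understates changes of low genes, and is called at 2-fold. Folds are plain ratios of FPKM. Markers of germ line, intestine, muscle, hypodermis, neurons, and pharynx were all measured in the RNA, with 0 of the markers at 0 throughout. Of the 6 sperm markers, 1 passed the filter.

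Small heat shock proteins are chaperones built around an alpha-crystallin domain. They assemble into oligomers and bind unfolding proteins without using ATP, keeping them in a state from which ATP-dependent chaperones can refold them. In *C. elegans*, the *hsp-16* genes are silent or low in unstressed animals and strongly induced by heat through the transcription factor HSF-1, while DAF-16, the FOXO factor of insulin signaling, contributes to the expression of several small heat shock proteins. Other family members, such as SIP-1 of oocytes and embryos, are made without stress.

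The 6 *hsp-16* genes lie at 2 loci on chromosome V (WBcel235). The first, here called the T27E4 cluster, spans 3312 bases from 9087293 to 9090604 and holds *hsp-16.1* (reverse strand), *hsp-16.48* (forward), *hsp-16.49* (reverse), and *hsp-16.11* (forward). The genes form an inverted repeat: *hsp-16.1* and *hsp-16.48* diverge from each other with 348 bases between their coding parts, and so do *hsp-16.49* and *hsp-16.11*, also with 348 bases. The second locus, the Y46H3A pair, spans 1542 bases from 1804334 to 1805875. There, *hsp-16.2* (reverse) and *hsp-16.41* (forward) diverge with 346 bases between their coding parts. Each of the 6 genes has 2 exons in the transcript used. The encoded proteins are 145 residues long for *hsp-16.1* and *hsp-16.11* and 143 residues for *hsp-16.48*, *hsp-16.49*, and *hsp-16.41*, while the transcript used for *hsp-16.2* encodes 127 residues.

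**Figure D1:**
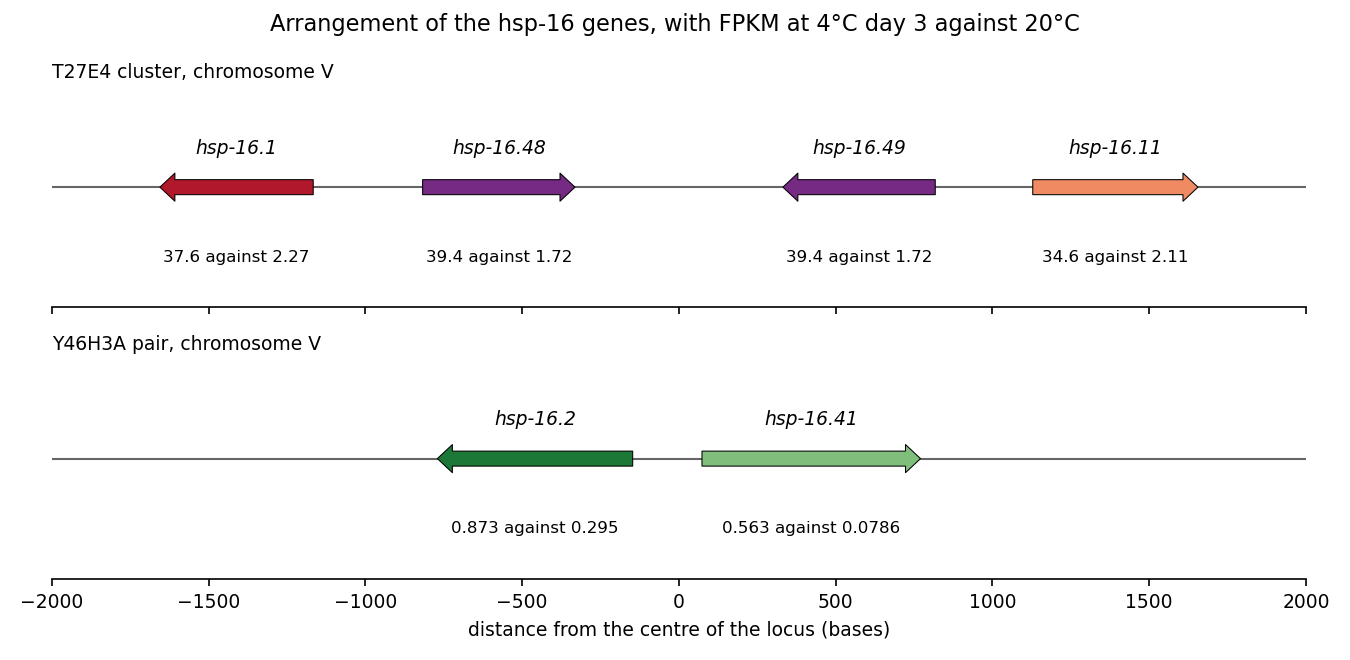
Maps of both *hsp-16* loci, drawn to scale as distance in bases from the centre of the locus. Arrows are genes, coloured to tell them apart, and point in the direction of transcription, and the numbers under each are its FPKM at 4°C day 3 against 20°C. All 4 genes of the T27E4 cluster are between 34.6 and 39.4 at day 3, while *hsp-16.2* is at 0.873 and *hsp-16.41* at 0.563.

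The copies within the T27E4 cluster cannot be read apart. *hsp-16.48* and *hsp-16.49* have the same read number in all 5 columns, with 59 reads at 20°C and 21 at 10°C, then 80 reads after 1 day, 1369 after 3 days, and 573 after 5 days at 4°C. The reads of *hsp-16.1* and *hsp-16.11* are equal in 4 columns and differ by 1 read at 20°C (79 and 80). Their FPKM values differ by a factor of 1.07 to 1.09 throughout, because the annotated transcript of *hsp-16.11* has 476 bases and that of *hsp-16.1* has 438. So the cluster contributes in effect a *hsp-16.1*/*hsp-16.11* measurement and a *hsp-16.48*/*hsp-16.49* measurement, and which copy a read came from is not known. Between these measurements the reads do differ, for instance 766 against 573 at day 5.

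The T27E4 cluster was low at 20°C and 10°C and highest at 4°C day 3. *hsp-16.1*, a heat-inducible chaperone of the cytosol, had an FPKM of 2.27 at 20°C (1.82 to 2.83) and 1.36 at 10°C (1.04 to 1.80). After 1 day at 4°C it had 3.03 (2.52 to 3.64), after 3 days 37.6 (35.6 to 39.7), and after 5 days 24.7 (23.03 to 26.54). Its copy *hsp-16.11* had 2.11 at 20°C and 1.25 at 10°C, then 2.79 after 1 day, 34.6 after 3 days, and 22.7 after 5 days at 4°C. *hsp-16.48* and *hsp-16.49*, the partners transcribed away from them, had 1.72 at 20°C (1.33 to 2.22) and 0.581 at 10°C (0.380 to 0.888). In the cold they had 2.18 after 1 day (1.75 to 2.71), 39.4 after 3 days (37.3 to 41.5), and 18.7 after 5 days (17.3 to 20.3). For both measurements the counting limits of day 1 overlap those of 20°C, while those of day 3 and day 5 overlap neither the warm conditions nor each other. The high level thus appeared between day 1 and day 3 at 4°C, after entry into the cold.

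**Figure D2:**
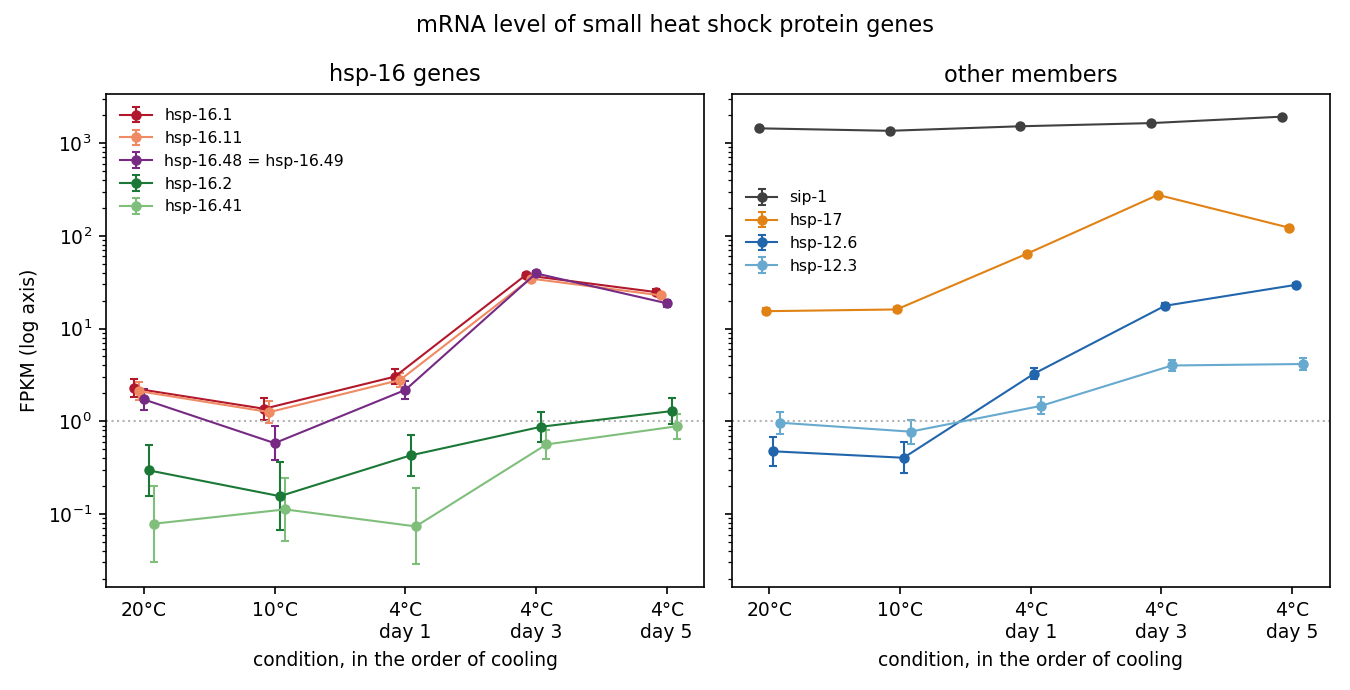
FPKM on a log axis against condition, in the order of cooling, for the *hsp-16* genes (left) and the other members (right). Points are the deposited values, bars are 95% Wilson limits for counting error, and the dotted line marks the filter at an FPKM of 1; *hsp-16.48* and *hsp-16.49* share a line. The T27E4 genes climb to between 34.6 and 39.4 at 4°C day 3, *hsp-17* reaches 276.5 there, *hsp-12.6* is highest at day 5, and *sip-1* stays between 1358 and 1929.

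On moving to 10°C, the cluster was lower than at 20°C. The log2 ratio at 10°C against 20°C was -1.42 (-2.03 to -0.78) for *hsp-16.48*/*hsp-16.49*, which shared rank 16 from the lowest among the 10509 genes past the filter. It was -0.69 (-1.17 to -0.21) for *hsp-16.1* and -0.71 for *hsp-16.11*, short of 2-fold. These values rest on 21 and 50 reads at 10°C. Of the 8 distinct members past the filter, this is 1 at least 2-fold lower and 0 higher. Of all genes, 0.933% were 2-fold lower in this comparison and 1.27% were 2-fold higher.

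Comparing 4°C day 1 with 10°C, 6 of the 8 distinct members were at least 2-fold higher and 0 were lower, where 5.49% of all genes were 2-fold higher and 5.42% lower. The 6 were *hsp-12.6*, *hsp-17*, *hsp-16.48* (with *hsp-16.49*), *hsp-16.1*, *hsp-16.11*, and *hsp-16.2*. The log2 ratios of *hsp-16.1* (1.10, 0.64 to 1.55), *hsp-16.11* (1.09, 0.64 to 1.54), and *hsp-16.2* (1.05, 0.01 to 1.93) lie near the threshold, and their counting limits reach below it. With *hsp-16.1* and *hsp-16.11* taken once the number is 5 of 7, and with a pseudocount of 1 it is 3. The median log2 ratio of the 8 was 1.09, against -0.09 over all genes.

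At 4°C day 3 against day 1, 6 of 8 were again at least 2-fold higher and 0 lower, where 1.57% of all genes were higher and 4.65% were lower. With *hsp-16.1* and *hsp-16.11* taken once, it was 5 of 7. The median of the 8 was 2.25, against -0.03 over all genes. *hsp-16.48* and *hsp-16.49* had a log2 ratio of 4.12 (3.80 to 4.42), which is 18.1-fold, and shared rank 2 from the highest among 10509 genes. *hsp-16.1* followed at rank 7 with 3.59 (3.32 to 3.86), and *hsp-16.11* at rank 8. The members that stayed under 2-fold on this scale were *hsp-16.2* and *sip-1*.

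At 4°C day 5 against day 3, the distinct members split. *hsp-17* (log2 ratio -1.17) and *hsp-16.48*/*hsp-16.49* (-1.07, -1.21 to -0.93) were at least 2-fold lower, so 2 of 8, where 4.98% of all genes were lower. None of the 8 was 2-fold higher, where 0.152% of all genes were. *hsp-16.1* (-0.60) and *hsp-16.11* (-0.60) were lower by less than 2-fold. *hsp-12.6* went the other way, with 0.75 (0.64 to 0.86), at rank 62 from the highest. With all genes in 10 bins of transcript length, the bin of the shortest, with 4 members, had a median log2 ratio of 0.16. The next, with 3 members, had 0.13. The part of transcript length in the values of the members was not tested.

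**Figure D3:**
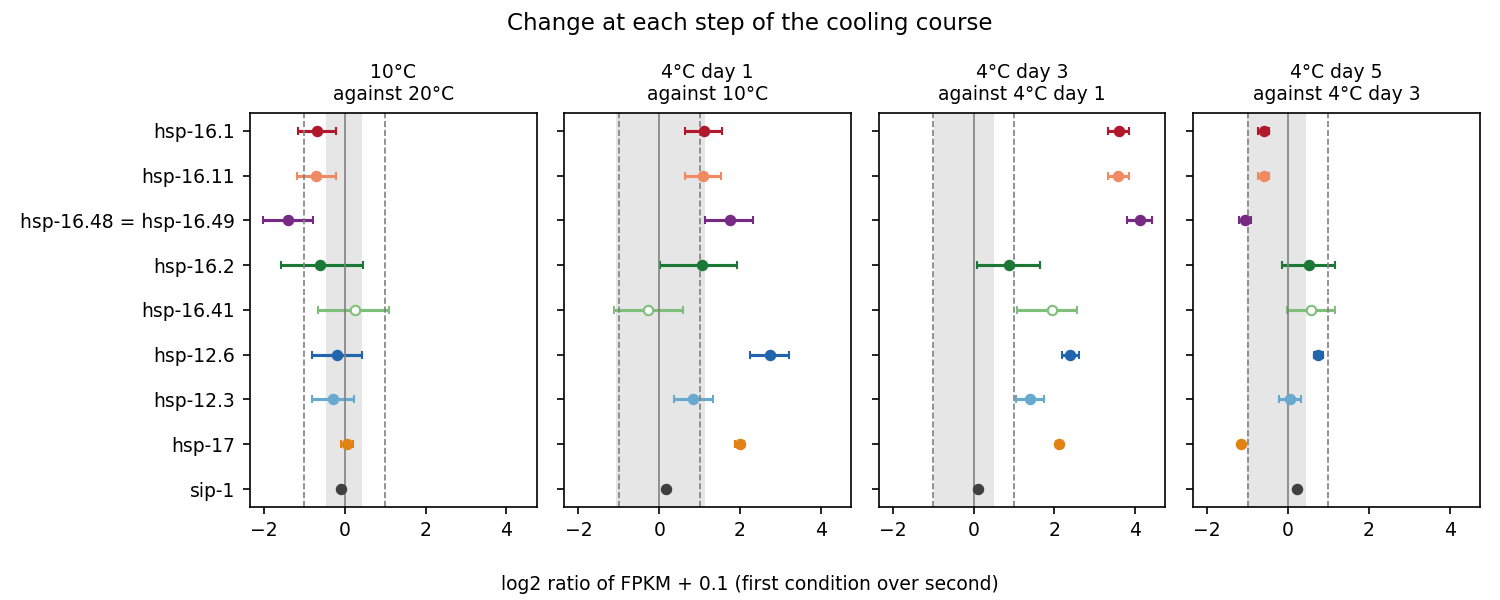
Log2 ratio of FPKM + 0.1 at each step of the cooling course, first condition over second, for the distinct members. Bars are 95% limits for counting error, dashed lines mark 2-fold, the grey band spans percentiles 5 to 95 of all 10509 genes past the filter, and the open symbol (*hsp-16.41*) is below the filter. Every member except *sip-1* lies right of the band at 4°C day 3 against day 1, and at day 5 against day 3 *hsp-17* and *hsp-16.48* lie left of it.

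Over the whole course, 7 of 8 distinct members were at least 2-fold higher at 4°C day 5 than at 20°C and 0 were lower, where 5.4% of all genes were higher and 16.7% lower. Taking *hsp-16.1* and *hsp-16.11* once gives 6 of 7. The number higher was also 7 at 4°C day 3 against 20°C, where 7.46% of all genes were higher, and both *hsp-16.1* and *hsp-16.11* are among the 7. The exception in both was *sip-1*. Of the 7, *hsp-12.6*, *hsp-12.3*, and *hsp-16.2* passed the filter only through values at 4°C. With a filter at 5, which *hsp-12.3* and *hsp-16.2* do not reach, the number higher at day 5 against 20°C was 5. Of the distinct members left, *sip-1* was again the only exception. The *hsp-16* genes added up, with *hsp-16.48* and *hsp-16.49* once but both *hsp-16.1* and *hsp-16.11*, came to an FPKM of 6.47 at 20°C (5.74 to 7.43) and 3.47 at 10°C (2.96 to 4.18). The sum was 8.50 after 1 day at 4°C (7.67 to 9.54), 113 after 3 days (109.6 to 116.5), and 68.4 after 5 days (65.6 to 71.4). Day 3 was 13.3-fold above day 1 and 17.45-fold above 20°C, and day 5 was 10.6-fold above 20°C. Since *hsp-16.1* and *hsp-16.11* may hold the same reads, the sum may be too high and its limits too narrow. With them taken once, its log2 ratio at day 3 against day 1 was 3.76, where it was 3.72 with both.

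The Y46H3A pair behaved differently in level. *hsp-16.2*, known for its use as a heat stress reporter, had an FPKM of 0.295 at 20°C (0.155 to 0.560) and 0.156 at 10°C (0.066 to 0.364), on 9 and 5 reads. It had 0.428 after 1 day at 4°C (0.255 to 0.719), 0.873 after 3 days (0.60 to 1.27), and 1.29 after 5 days (0.926 to 1.79), on 14, 27, and 35 reads. *hsp-16.41*, its divergent partner, had 0.079 at 20°C and 0.112 at 10°C, on 4 and 6 reads. It had 0.073 after 1 day at 4°C, 0.563 after 3 days (0.392 to 0.808), and 0.883 after 5 days (0.649 to 1.203), on 4, 29, and 40 reads. Both were highest at day 5, without the lower level at day 5 than at day 3 of the T27E4 genes, although the limits of day 3 and day 5 overlap for each. At day 5 against 20°C, *hsp-16.2* was 4.37-fold higher and *hsp-16.41* was 11.2-fold higher. At day 3, the lowest T27E4 value, 34.6, stood against 0.873 for *hsp-16.2*, so a pair of loci with the same divergent layout differed in level by more than an order of magnitude. The *hsp-16.2* values depend on the transcript: the longer one, with 578 bases and nearly the same reads, stays below the filter, at 0.880 at day 5.

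*hsp-12.6* had the highest ratio of highest to lowest FPKM among the members, 73.2-fold, close to the 67.75-fold of *hsp-16.48*, with only 26 and 21 reads at their lowest, at 10°C. It encodes a very short family member of 110 residues, known as a target of DAF-16 in long-lived insulin signaling mutants, and lies on chromosome IV from 9446229 to 9447228. Its FPKM was 0.474 at 20°C (0.330 to 0.681) and 0.404 at 10°C (0.276 to 0.592). After 1 day at 4°C it was 3.27 (2.86 to 3.74), after 3 days 17.6 (16.6 to 18.7), and after 5 days 29.6 (28.2 to 31.1). From 10°C on, each value lies outside the limits of the previous one. The log2 ratio was 2.74 (2.25 to 3.21) at day 1 against 10°C and 2.39 (2.19 to 2.60) at day 3 against day 1. At day 5 against 20°C it was 62.4-fold, which ranked 15 from the highest. *hsp-12.6* was thus already 8.10-fold above 10°C at day 1, when the T27E4 genes were 2.22-fold (*hsp-16.1*) and 3.75-fold (*hsp-16.48*) above it.

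*hsp-12.3*, a further short member of 109 residues, lies 721 bases downstream of *hsp-12.6* on the same strand (9444791 to 9445507). It had an FPKM of 0.965 at 20°C (0.734 to 1.27) and 0.772 at 10°C (0.574 to 1.04). The level was 1.47 after 1 day at 4°C (1.18 to 1.82), 4.00 after 3 days (3.50 to 4.57), and 4.14 after 5 days (3.603 to 4.769). It was above *hsp-12.6* at 20°C and below it at every time at 4°C. Its log2 ratio was 0.84 (0.36 to 1.32) at day 1 against 10°C, 1.39 (1.04 to 1.73) at day 3 against day 1, and 0.05 (-0.22 to 0.32) at day 5 against day 3. Of the nearest expressed genes outside this pair, F38E11.9 had a log2 ratio of -1.48 at day 5 against 20°C and *cpin-1* had -1.06. Of all genes, 16.7% were 2-fold lower in that comparison and 5.4% were higher.

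*hsp-17*, a family member described in *C. elegans* as promoting the aggregation of its clients, was the most abundant of the members past 2-fold. It lies on chromosome V from 8384799 to 8385929, has 3 exons, and encodes 149 residues. The FPKM was 15.39 at 20°C (14.27 to 16.59) and 16.07 at 10°C (14.95 to 17.26). In the cold it was 64.3 after 1 day (62.1 to 66.7), 276.5 after 3 days (271.6 to 281.4), and 122.8 after 5 days (119.4 to 126.3). The level at 10°C is within the counting limits of 20°C. Day 1 was 4.00-fold above 10°C, day 3 was 4.30-fold above day 1 and 18.0-fold above 20°C, and day 5 was 7.98-fold above 20°C. Among all 19985 genes by level, *hsp-17* stood at place 4699 at 20°C and at place 201 at 4°C day 3. Its exons overlap those of F52E1.14 on the opposite strand over 66 bases, 11.98% of the transcript. F52E1.14 itself had an FPKM of 45.2 at day 3 against 65.9 at day 1, while whether reads were counted by strand is not given in the sources used here.

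*sip-1* was by far the most abundant member and the steadiest. It encodes a chaperone of oocytes and embryos with 159 residues, on chromosome III from 10506106 to 10506801. Its FPKM was 1444 at 20°C (1434 to 1455) and 1358 at 10°C (1348 to 1368). At 4°C it was 1520 after 1 day (1510 to 1531), 1644 after 3 days (1633 to 1655), and 1929 after 5 days (1916 to 1942). By level it stood between place 23 and place 37 among all genes. No step reached 2-fold, and day 5 was 1.34-fold above 20°C. Markers of oocytes and eggshell, where SIP-1 is made, added up to 1382 at day 5 against 1849 at 20°C. Of the 10 markers, 1 was 2-fold lower and 0 were higher, where 16.7% of all genes were lower and 5.4% higher. The part of oocytes in the *sip-1* values was not tested. An exon of F43D9.8 overlaps 19.2% of the *sip-1* transcript on the opposite strand.

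The order of the members by FPKM, which is per length, changed along the course. At 20°C it ran *sip-1*, *hsp-17*, *hsp-16.1*, *hsp-16.11*, *hsp-16.48*, *hsp-12.3*, *hsp-12.6*, *hsp-16.2*, *hsp-16.41*. Here the counting limits of neighbours overlap within *hsp-16.1* to *hsp-16.48* and within *hsp-12.6* to *hsp-16.41*. At day 3, *hsp-16.48* (39.4), *hsp-16.1* (37.6), and *hsp-16.11* (34.6) followed *hsp-17*, with limits overlapping between neighbours, and *hsp-12.6* (17.6) came next. At day 5, *hsp-12.6* stood above the T27E4 genes, and its limits (28.2 to 31.1) do not overlap those of *hsp-16.1* (23.03 to 26.54). Of the summed FPKM of the distinct members, *sip-1* made up 98.4% at 20°C and 98.5% at 10°C, then 95.2% after 1 day, 80.0% after 3 days, and 89.6% after 5 days in the cold. The share of *hsp-17* was 13.45% at day 3 against 1.05% at 20°C, and that of the *hsp-16* genes together was 5.50% at day 3 against 0.441% at 20°C. This last share holds both *hsp-16.1* and *hsp-16.11* and so may count the same reads more than once. *hsp-16.11* alone made up 1.68% at day 3 and 0.144% at 20°C.

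The other genes with an alpha-crystallin domain mostly stayed under 2-fold. Of 8 listed genes (*hsp-12.1*, *hsp-12.2*, *hsp-25*, *hsp-43*, F08H9.3, F08H9.4, ZK1128.7, and Y55F3BR.6), 7 passed the filter. Comparing day 1 with 10°C, 1 of them was at least 2-fold higher and 1 was lower, where 5.49% of all genes were higher and 5.42% lower. At day 3 against day 1, when 6 of 8 distinct members were higher, 0 were higher and 0 lower, and their median log2 ratio was 0.06. Of all genes, 1.57% were higher and 4.65% lower in that comparison. Both the members and these genes were listed with earlier results of these data known, so the contrast may come from that choice. F08H9.3, on chromosome V, had an FPKM of 1.06 at day 1 (100 reads) against 0.258 at 10°C (24 reads), and 1.83 at day 5. *hsp-12.1* was lower throughout the cold, with 0.365 at day 1 against 1.01 at 10°C, and 0.146 at day 5 on 5 reads. *hsp-25*, which is found in muscle without stress, had 20.1 at day 3 and 13.6 at day 5, against 23.6 at 20°C. *hsp-43* had 11.1 at day 3 and 9.25 at day 5, against 10.6 at 20°C, less than 2-fold apart. F08H9.4, below the filter, had 24 reads at day 1 against 1 read at 10°C, a log2 ratio of 2.30 (1.33 to 2.84), while 41.5% of its exon bases overlap another gene.

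**Figure D4:**
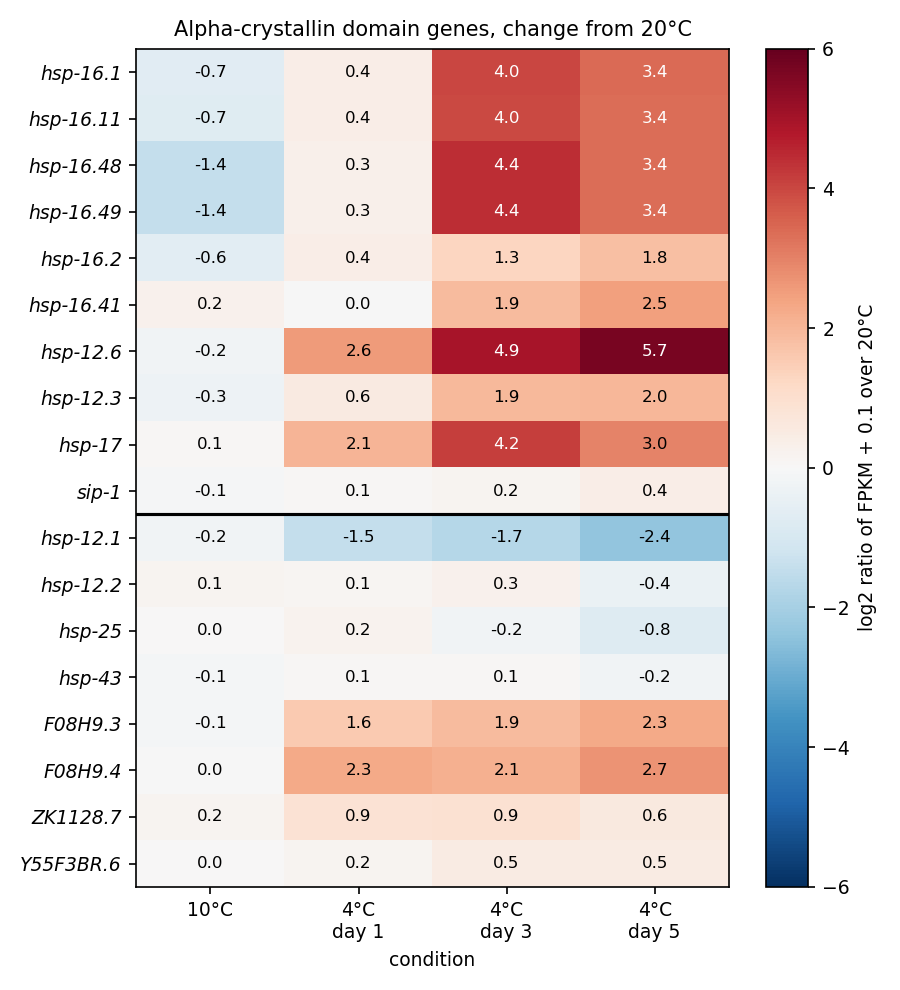
Log2 ratio of FPKM + 0.1 over 20°C for the 10 members (above the line) and the 8 other alpha-crystallin domain genes (below it), by condition in the order of cooling. The largest values are those of *hsp-12.6* at 4°C day 5 (5.69) and day 3 (4.95) and of *hsp-16.48* and *hsp-16.49* at day 3 (4.44), and below the line only F08H9.3 and F08H9.4 exceed 1 in this map.

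A list of 21 genes of the heat shock pathway and its partner chaperones was set beside the members. Of these, 20 passed the filter. Comparing day 1 with 10°C, 3 were at least 2-fold higher and 0 lower, where 5.49% of all genes were higher and 5.42% lower. The median log2 ratio of the 20 was 0.14. The 3 were *pqm-1*, F44E5.4, and F44E5.5. The last 2 had nearly equal reads at day 1 (1409 and 1407) and may be a single measurement. *hsf-1*, which encodes the factor that induces *hsp-16* genes on heat, stayed between an FPKM of 29.5 (4°C day 1) and 36.0 (10°C), and was at 31.3 at day 3 against 33.7 at 20°C. *hsb-1*, for an inhibitor that binds HSF-1, was at 33.0 at day 3 against 35.6 at 20°C. *daf-16* had 27.7 at 10°C, 37.7 at day 1, and 39.8 at day 3, a log2 ratio of 0.44 at day 1 against 10°C. *pqm-1*, for a zinc finger factor that acts beside DAF-16, had 9.84 at 10°C and 65.7 at day 1, and it was lower at day 3 (60.8) and day 5 (34.6).

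At day 3 against day 1, 2 of the 20 genes of this list past the filter were at least 2-fold higher and 0 lower. Of all genes, 1.57% were higher and 4.65% lower. The 2 were the inducible HSP70 genes F44E5.4 and F44E5.5. This divergent pair had nearly equal reads (6051 and 6045 at 4°C day 3) and followed the same course. F44E5.4 stood at 0.774 FPKM at 20°C and 0.416 FPKM at 10°C, then 7.90 after 1 day, 35.8 after 3 days, and 42.5 after 5 days at 4°C. Like the T27E4 genes they were lowest at 10°C and had similar levels at day 3, but they were above the cluster at day 1 and higher still at day 5. F44E5.4 was 4.54-fold higher at day 3 than at day 1, where *hsp-16.1* was 12.4-fold higher. *hsp-70*, a further heat-inducible gene of the HSP70 family, was at 0.067 at 20°C (11 reads) and 0.023 at day 1 (4 reads). It was at 0.223 at day 3 (37 reads) and 0.234 at day 5, and did not pass the filter, as was the case for *hsp-16.41*. The constitutive chaperone genes *hsp-1* (1485 at day 3 against 1121 at 20°C) and *hsp-90* (1176 against 931) differed by less than 2-fold. Of the genes for HSP70 of the ER, *hsp-4* was highest at day 1 (281), against 180 at 10°C, and was at 145 at day 3, the time at which the T27E4 genes and *hsp-17* were highest.

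None of the genes next to the members was 2-fold higher at 4°C day 3 against day 1, where 1.57% of all genes were. So few genes would hold few such calls in any case. Y46H3A.4 was lower, with a log2 ratio of -2.08, where 4.65% of all genes were 2-fold lower. Other steps varied. On either side of the T27E4 cluster, the nearest genes past the filter had log2 ratios at 4°C day 3 against day 1 of 0.04 (T27E4.7, 10970 bases away) and -0.20 (F21C10.10, 5662 bases away), where the cluster had 3.59 to 4.12. At day 5 against day 3, however, T27E4.7 had -1.01, beside -0.60 to -1.07 in the cluster. Beside *hsp-17*, F52E1.14 had -0.54 and *pho-6* had 0.18, with 1.26 for *pho-6* at day 5 against 20°C, beside 2.99 for *hsp-17*. Beside *sip-1*, *urm-1* had 0.25 and *sly-1* had -0.01, and at day 5 against day 3 *urm-1* had 0.25 beside 0.23 for *sip-1*. To the left of the Y46H3A pair, *dhs-13* (32599 bases away) had 0.22 at day 3 against day 1. To the right, Y46H3A.4 was at 1.55 at day 1 against 0.463 at 10°C and at 0.289 at day 3. The gene beyond it, Y46H3A.5, which was picked after its values were seen and lies 5469 bases from *hsp-16.41*, had 32.3 at day 1 against 0.233 at 10°C, and 2.24 at day 3. So this neighbour was highest at day 1, when *hsp-16.41* had 4 reads, while both genes of the pair were highest at day 5. At day 3 and day 5 (2.30) it was below day 1, but still above 10°C and 20°C (0.061, on 4 reads).

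For each distinct member past the filter, the genes with the most similar course were sought among 10500 other genes, by the Euclidean distance between centred log2(FPKM + 0.1) values over the 5 conditions. This is a description over 5 values that share their libraries. The distance is not scaled and can grow with the size of a change, so distances of different members are not directly comparable. *sip-1*, the steadiest member, had the smallest distances, to *ard-1* (distance 0.02), *pas-5*, for a subunit of the proteasome (0.03), and *dars-1*, for aspartyl-tRNA synthetase (0.03). For *hsp-12.3* they were *haly-1*, for histidine ammonia lyase (0.17), *fbxa-71* (0.30), and T28A11.19 (0.33). For *hsp-17* they were M03A1.8 (0.31), F53A9.6 (0.42), and *pgp-10*, for an ABC transporter (0.48), all highest at day 3. F53A9.6 had 29.1 at day 1, 91.3 at day 3, and 52.1 at day 5. For *hsp-12.6* they were C54F6.6 (0.41), *eol-1* (0.54), and B0507.8 (0.62), all highest at day 5, and for *hsp-16.2* F59C6.18 (0.24), ZK596.1 (0.36), and C07A12.2 (0.44). The T27E4 genes had the largest distances to their nearest genes, with all members left out of the search. The nearest to *hsp-16.1* was C04C11.25 at a distance of 1.03, followed by T06C12.14 (1.03) and *droe-8* (1.05), and the nearest to *hsp-16.48* was Y71H2AM.25 at 1.39, followed by *nspe-7* (1.399) and C04C11.25 (1.47).

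The marker lists of cell types were set beside the members. At 4°C day 3 against day 1, 0 markers of any list were 2-fold higher and 0 were lower. Of all genes, 1.57% were higher and 4.65% lower, so lists this short would hold few calls in any case. The summed FPKM of the 4 pharynx markers was 43.4 at day 3 against 29.5 at day 1, and that of the 7 neuron markers was 104 against 94.5. At day 5 against day 3, *hsp-17* and *hsp-16.48* were 2-fold lower, as were 4.98% of all genes. Of the markers past the filter, 2 of 3 for pharynx, 1 of 7 for neurons, and 1 of 6 for intestine were lower. The other lists had none. The summed level was 77.4 at day 5 against 144 at day 3 for body wall muscle and 20.7 against 43.4 for pharynx. The part of these cell types in the values of the members was not tested.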

How the data were processed

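RNA-seq was made from 10 samples of whole wild-type animals, 2 for each of 5 conditions. As described by the authors, reads were stripped of adapters with fastp (0.23.4), cleared of contaminants such as rRNA, mapped with STAR (2.7.11b) to WBcel235, and quantified with DESeq2 (1.42.1). The deposited values are FPKM for 31865 transcripts of 19985 genes, as computed by the authors, 1 column per condition. The annotation release, strand use in counting, and the pooling of replicates are not given in the sources used here. A further 1 column of per-condition values belongs to no sample and was not used.

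FPKM times exon length (Ensembl release 115, WBcel235) gave whole reads, within 0.01 of a read, for 100% of values. A gene took its transcript with the highest mean FPKM. A filter at an FPKM of 1, to be reached in any condition, kept 10509 genes. Limits of log2 ratios combine the 95% Wilson limits of both values. A limma fit was planned for columns with replicates, and with 1 column per condition no test was run and no p-value is given. A floor of 3 reads was kept for folds. The procedure was tested on simulated data.

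The members and gene lists were chosen with earlier results of these data known. Named were all members, 8 other alpha-crystallin domain genes, 21 heat shock pathway genes, the nearest gene past the filter on either side of each locus, and the 3 genes of most similar course. Y46H3A.5 and the comparison of 4°C day 3 with 20°C were added after values were seen. Alternatives were pseudocounts of 1 and 0.01, no filter or a filter at 5, thresholds of 1.5-fold and 4-fold, centring on the median of all genes, summed transcripts, and each copy counted. Centring by transcript length, the longest transcript, and merging *hsp-16.1* with *hsp-16.11* were added later. Nucleotide and protein sequences were not analysed here. Computations were run in Python 3.11.15 with scipy 1.17.1, pandas 2.3.3, and numpy 2.4.6, and plots were drawn with matplotlib 3.10.9.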

Additional observations from a re-analysis of the deposited data

How the results depend on the processing

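No paired analysis was possible because the deposited columns carry no replicate, and none could be left out. No change of 2-fold or more reversed, which was largely fixed in advance. A pseudocount or a filter cannot reverse the sign of a single member's ratio, and the medians used for centring were far below 2-fold. Centred by transcript length, *sip-1* at 10°C against 20°C had 0.01 (reported: -0.09) and *hsp-12.3* at day 5 against day 3 had -0.05 (reported: 0.05). Of 170 values that answer a comparison under an alternative, 159 stayed near the reported one, as did 353 of 380 ratios of single members. A count was near if within a factor of 1.5 of the reported one, and a ratio if inside its counting limits. Alternatives in the filter or in the counting of copies cannot change a ratio of a single member, so many of the 353 were fixed in advance. The *hsp-16* sum without a filter and a count of 0 at a stricter threshold cannot change either, so some of the 159 were fixed too. With a pseudocount of 1, 13 ratios moved and 27 stayed. Centred by transcript length, 9 moved and 31 stayed, and centred on the median of all genes, 5 moved and 35 stayed. The number of distinct members 2-fold lower at 10°C (reported: 1) was 0 with a pseudocount of 1, 2 with each copy counted, 4 at 1.5-fold, and 0 at 4-fold. The number 2-fold higher at 4°C day 1 (6) was 3 with a pseudocount of 1 and 1 at 4-fold. At day 5 against day 3, the number lower (2) was 4 at 1.5-fold and 0 at 4-fold, and the number higher (0) was 1 at 1.5-fold. The *hsp-16* sum for that step (-0.72) was -0.80 with each copy counted and -0.88 with ratios centred by transcript length. At this depth, *hsp-16.41*, with 4 to 40 reads, and *hsp-16.2*, with 5 to 35, carry wide limits.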
